A study of Arabidopsis thaliana with 6 samples.

Results

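AP1, CAL, FUL and AGL79 make up the APETALA1/FRUITFULL clade of Arabidopsis thaliana MADS-box genes, and SEP1, SEP2, SEP3 and SEP4 are its SEPALLATA genes. These 8 genes were chosen by locus tag, out of 37899 nuclear genes of a RefSeq gene table, and each was described by the peaks that overlapped its span or the 1000 bp on either side, called its window below. The proteins of both groups are transcription factors that bind DNA as multimers. AP1 and CAL set the identity of floral meristems, FUL acts in meristems and in fruit valves, and the SEP proteins are the shared partners of the complexes that specify floral organs. In vegetative plants such floral genes are kept silent, and Polycomb repressive complex 2, which methylates lysine 27 of histone H3, is known for its part in this. SWINGER (SWN) is a catalytic subunit of that complex, and VAL1 and VAL2 are B3-domain DNA-binding repressors known to help recruit it.

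The libraries came from whole seedlings 14 days old, in which chromatin was precipitated with a GFP antibody. All groups carried SWN-GFP driven by the SWN promoter in a swn mutant. The samples labelled SWN-GFP, called VAL-intact below, had VAL1 and VAL2 intact and those called val1 val2 were mutant in both, with 2 libraries of each. The 2 input libraries, 1 of each genotype, entered no comparison, and alleles and transgenic lines are named in no source used here. As whole seedlings were used, fewer cells with SWN-GFP at a gene and less SWN-GFP per cell cannot be told apart.

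Each library had its own peak list, of 8189 and 8666 peaks in VAL-intact and of 9177 and 9618 peaks in val1 val2. The read depth behind the lists is unknown, and a gene without a peak in a list only failed the threshold of the caller there, and SWN may still have been present. Nothing in the labels says that replicates came from separate cultures. With 2 libraries against 2, an exact two-sided permutation test cannot give a p below 0.333, so no single comparison of covered lengths could pass 0.05. Differences are therefore given as values and by whether the groups overlapped. Any batch or input that belonged to 1 genotype cannot be told apart from the genotype.

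All 8 genes carried SWN-GFP peaks in all 4 lists, a class called kept below. Kept genes made up 15.7% of all nuclear genes, 18.1% of protein-coding ones and 43.0% of those with any peak. No member was lost (peaks in both VAL-intact lists only), gained (peaks in both val1 val2 lists only) or mixed (any other combination), where 9.68%, 12.1% and 35.2% of genes with any peak were. Fold enrichment, a value of the authors, relates the signal at a summit to a local background. Counting only peaks with a fold of 4 or more, 5 members were kept, where 5.14% of nuclear genes were. AP1, FUL, SEP1, SEP2 and SEP3 held some of the strongest peaks of every list. By fold, the strongest peak of each of these 5 genes ranked at or above percentile 95 of its list in all 4 lists, which 1.01% of nuclear genes did. This cut was not planned. It lay between the lowest percentile among the 5, 97.8 at SEP3, and the highest among the other members, 94.3 at CAL. CAL, AGL79 and SEP4 carried weaker peaks, and their percentiles lay farthest apart between the genotypes.

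**Figure D1:**
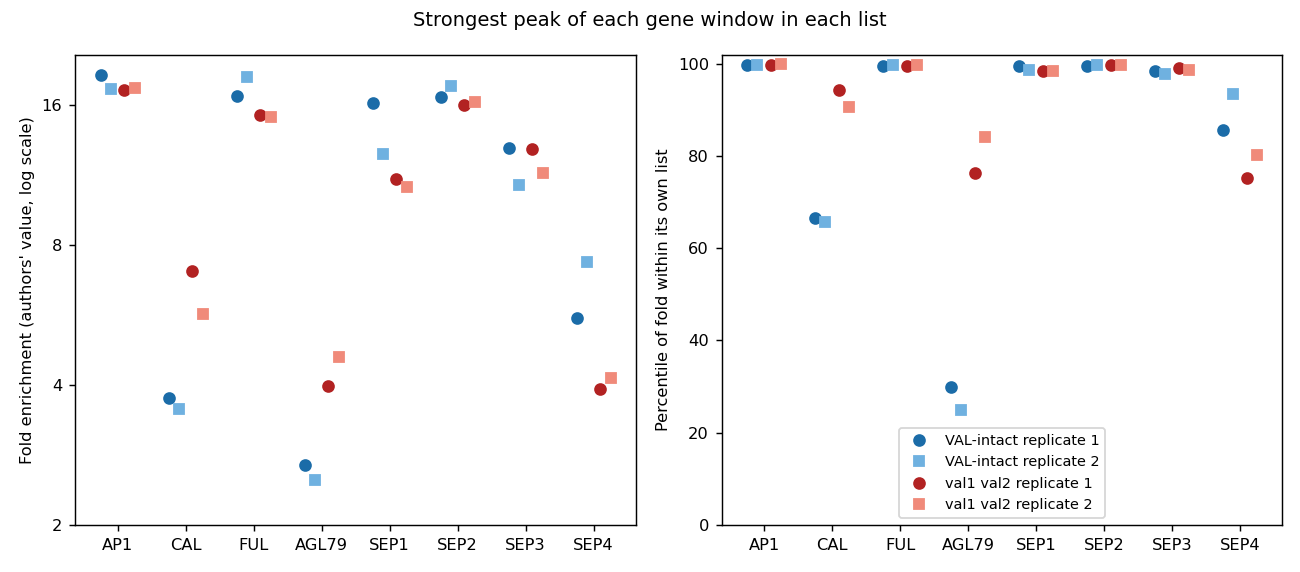
Fold enrichment (left, log axis) and its percentile within its own list (right) for the strongest peak in each of the 8 gene windows, with 1 point for each of the 4 libraries. AP1, FUL, SEP1, SEP2 and SEP3 sit near the top of every list, while CAL and AGL79 rank lower in the VAL-intact lists and SEP4 lower in the val1 val2 lists.

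The strongest summits lay close to a gene end. In 7 of the 8 genes, all but CAL, the summit was within 500 bp of the same gene end in all 4 lists, a distance chosen after seeing the data, and 35.0% of kept genes met it. In AP1, CAL, FUL, SEP1, SEP2 and SEP3 this was the end with the higher coordinate, and in AGL79 and SEP4 the end with the lower one. The gene table gave no strand, so these ends are not called start or stop of the gene. The strongest peak of each gene touched no other gene of the table, except that the SEP1 peak covered all 449 bp of the long non-coding RNA gene AT5G02455 in all 4 lists, so that the peak cannot be assigned to either gene alone.

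**Figure D2:**
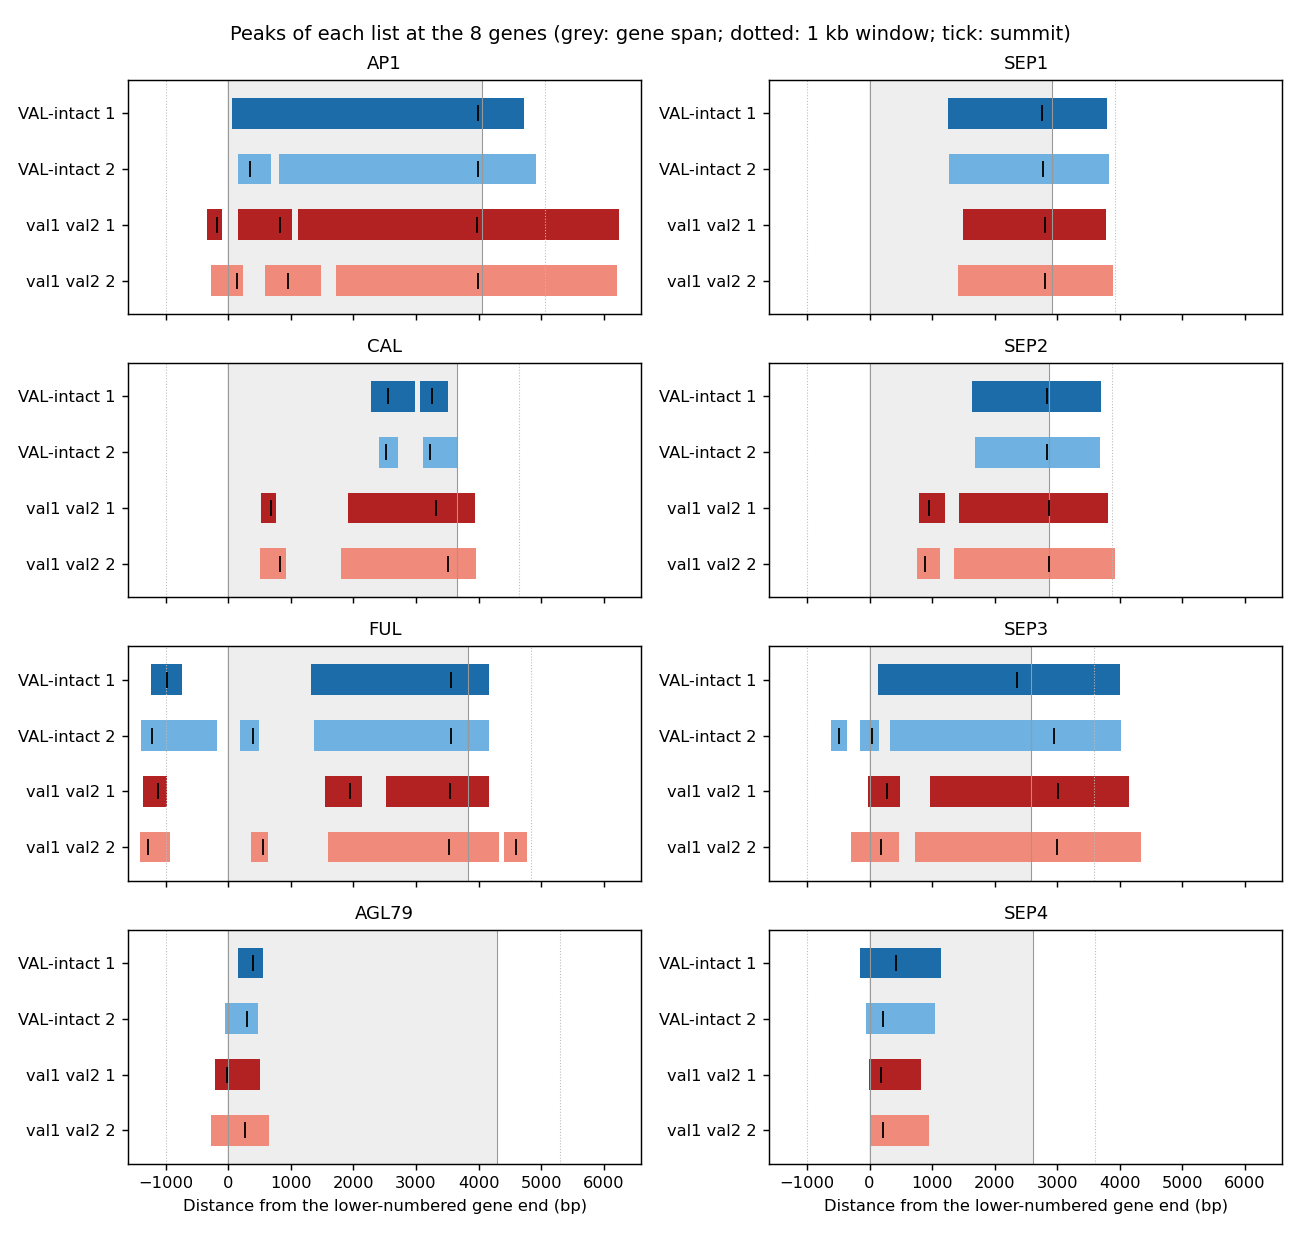
Peaks (bars) and summits (ticks) of the 4 lists at the 8 genes, by distance in bp from the gene end with the lower coordinate; blue bars are VAL-intact and red bars val1 val2, the gene span is grey and dotted lines bound the window. At AP1 the main peak reaches farther past the right-hand gene end in both red rows, at CAL the red peaks are longer, and at SEP4 they are shorter.

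AP1 (AT1G69120), the floral meristem and sepal and petal identity gene, carried the highest pileup of the 8 genes in every list, and its summit hardly moved. In TAIR10 coordinates, used throughout, the strongest peak lay at chromosome 1, 25982360 to 25987024 in VAL-intact replicate 1 and 25983100 to 25987209 in replicate 2, and at 25983410 to 25988545 and 25984019 to 25988512 in val1 val2 replicates 1 and 2. The pileup at the summit was 303 and 320 fragments in the VAL-intact lists and 270 and 301 in the val1 val2 lists. The 4 summits fell within 11 bp of each other, between 65 and 76 bp inside the gene end. The fold was 18.5 and 17.3, then 17.2 and 17.4, so the genotypes overlapped.

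The edges of the AP1 peak lay apart in the 2 genotypes although its summit did not. The edge outside the gene was 675 and 860 bp past the gene end in VAL-intact and 2196 and 2163 bp past it in val1 val2. Inside the gene, the main peak reached 3989 and 3249 bp from that end in VAL-intact and 2939 and 2330 bp in val1 val2, with further short peaks beyond it in 3 lists. This inner difference depended on where the caller broke the peak: with peaks under 300 bp apart joined, an alternative chosen after seeing the data, the inner edges overlapped and the outer ones did not. The covered length of the window, the number of bp under any peak, was 4665 and 4635 bp in VAL-intact and 5042 and 4747 bp in val1 val2, higher in both of the latter. As the window ends 1000 bp past the gene end, the part of the val1 val2 peaks beyond that point is not counted. The mean difference of 244.5 bp was 97 bp without val1 val2 replicate 1 and 392 bp without val1 val2 replicate 2. Over the gene span alone the direction was the opposite, with a mean difference (val1 val2 minus VAL-intact) of -252 bp and overlapping groups, and with peaks of a fold of 4 or more it was -752 bp.

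CAL (AT1G26310), the closest relative of AP1, which shares its role in floral meristems, had the largest relative difference of the 8 genes. Its window was covered over 1147 and 861 bp in VAL-intact and over 2283 and 2562 bp in val1 val2. The means were 1004 ± 202 bp and 2422.5 ± 197 bp (SD, n = 2 each), a ratio of 2.41, and both val1 val2 libraries lay above both VAL-intact libraries. In VAL-intact the gene held 2 short peaks near its higher end, the strongest of 703 bp in replicate 1 and 555 bp in replicate 2. In val1 val2 1 peak of 2040 and 2153 bp spanned that part, at chromosome 1, 9101905 to 9103944 and 9101798 to 9103950, and a second short peak lay farther inside.

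The signal at the CAL summit differed in the same direction as the length. The pileup was 31 and 33 fragments in VAL-intact and 73 and 76 in val1 val2. The local background worked out from pileup and fold was 7.53 and 8.60 fragments, then 9.52 and 12.6. The VAL-intact values were the lowest of their lists. The fold was 3.75 and 3.54, at percentiles 66.6 and 65.6 of the lists, and then 7.03 and 5.67, at percentiles 94.3 and 90.6. With only peaks of a fold of at least 4, or only the strongest 2000 peaks of each list, CAL would be called gained. AP1 and CAL, a pair of paralogs, thus carried peaks of different rank in the VAL-intact lists, where AP1 stood at percentile 99.7 in both.

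FUL (AT5G60910), which controls fruit valve growth and acts with AP1 and CAL in the shoot, had a strong peak whose summit stayed within 28 bp in the 4 lists. The pileup there was 195 and 240 fragments in VAL-intact and 171 and 192 in val1 val2. The fold was 16.7 and 18.4, then 15.2 and 15.0, at percentiles between 99.6 and 99.8 of the lists. Pileup and fold were thus lower in both val1 val2 lists, while the percentiles overlapped. The window was covered over 3114 and 3921 bp, then 2268 and 3446 bp, and the groups overlapped (exact permutation p = 0.667). The mean difference of -660.5 bp was -257 bp without VAL-intact replicate 2, -1064 bp without VAL-intact replicate 1, -71.5 bp without val1 val2 replicate 1 and -1249.5 bp without val1 val2 replicate 2. Part of this length belonged to a weaker peak outside FUL, which in all 4 lists overlapped the neighbouring receptor kinase gene RLK1. Relative to the lower-coordinate end of FUL, that peak ended at -735 and -179 bp in VAL-intact and at -982 and -931 bp in val1 val2. As the window starts 1000 bp outside that end, more of this peak counted in VAL-intact, which entered the mean difference. Over the FUL span alone the covered length was 2513 and 2763 bp in VAL-intact and 1911 and 2502 bp in val1 val2, lower in both of the latter.

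AGL79 (AT3G30260), the least described member of the clade, carried the weakest peaks of the 8 genes in the VAL-intact lists. Only a stretch at its lower end was covered, over 399 and 521 bp in VAL-intact and 708 and 922 bp in val1 val2. The means were 460 ± 86.3 bp and 815 ± 151 bp (SD, n = 2 each), and the groups did not overlap. The pileup was 22 and 23 fragments, then 38 and 50, over a local background of 7.53 and 8.60, then 8.79 and 10.1. Each of these backgrounds was the lowest of its list, and this lowest value was itself higher in both val1 val2 lists. The fold was 2.70 and 2.50, at percentiles 30.0 and 24.9, and then 3.98 and 4.59, at percentiles 76.4 and 84.1. The −log10 q was 3.76 and 3.39, then 11.2 and 17.1. With only peaks of a −log10 q of at least 5, AGL79 would be called gained. In both genotypes the peak left most of the gene uncovered: between 9.29% and 15.1% of the span lay under it.

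The SEP genes, whose products act redundantly in all floral whorls, had 3 strong peaks and a weak one. SEP1 (AT5G15800) was covered over 2533 and 2555 bp in VAL-intact and 2295 and 2477 bp in val1 val2, means of 2544 ± 15.6 bp and 2386 ± 129 bp (SD, n = 2 each). The mean difference of -158 bp was -67 bp without val1 val2 replicate 1 and -249 bp without val1 val2 replicate 2. Its peak was lower in both val1 val2 lists, with a fold of 16.1 and 12.5 and then 11.1 and 10.7, and a pileup of 175 and 155 and then 131 and 137 fragments. The rank differed little, from percentiles 99.5 and 98.7 to percentiles 98.5 and 98.4.

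SEP2 (AT3G02310), the closest relative of SEP1, stood on the other side. It was covered over 2056 and 1997 bp in VAL-intact and 2810 and 2905 bp in val1 val2, means of 2026.5 ± 41.7 bp and 2857.5 ± 67.2 bp (SD, n = 2 each), a ratio of 1.41. The main peak lay at chromosome 3, 465923 to 467978 and 465967 to 467963 in VAL-intact, and at 465703 to 468084 and 465627 to 468206 in val1 val2. It was thus longer at both edges, and a second short peak inside the gene was present in both val1 val2 lists and in neither VAL-intact list. The pileup was 177 and 211, then 225 and 260 fragments, and the local background 9.69 and 11.1, then 13.1 and 15.1. The fold was 16.7 and 17.6, then 16.0 and 16.2, so that the higher pileup came with a higher background and not with a higher fold. The summit lay 41 and 34 bp inside the gene end in VAL-intact and 8 and 9 bp inside it in val1 val2.

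SEP3 (AT1G24260), the SEP gene with the widest set of protein partners, was covered over most of its span. The share was 95.1% and 93.2% in VAL-intact and 81.6% and 90.3% in val1 val2. Its window held 3460 and 3824 bp under peaks in VAL-intact and 3144 and 3640 bp in val1 val2, and the groups overlapped (exact permutation p = 0.667). The mean difference of -250.0 bp turned to 30 bp when only peaks with a −log10 q of at least 5 were used. It was -68 bp without VAL-intact replicate 2, -432 bp without VAL-intact replicate 1, -2 bp without val1 val2 replicate 1 and -498 bp without val1 val2 replicate 2, so its size rested on single libraries. Over the SEP3 span alone the covered length was 2460 and 2412 bp in VAL-intact and 2113 and 2337 bp in val1 val2, lower in both of the latter. With peaks of a fold of 4 or more the mean difference over the window was -617 bp, and the groups did not overlap. The fold was 12.9 and 10.8, then 12.9 and 11.4. The summit was called 231 bp inside the gene end in VAL-intact replicate 1 and outside the gene, at -367 to -429 bp from the same end, in the other 3 lists, so VAL-intact replicate 1 stood apart from the others.

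SEP4 (AT2G03710), which acts in sepals and floral meristems beside the other SEP genes, had weaker and shorter peaks in val1 val2. Its window was covered over 1304 and 1097 bp in VAL-intact and 826 and 949 bp in val1 val2, means of 1200.5 ± 146 bp and 887.5 ± 87.0 bp (SD, n = 2 each), a ratio of 0.739. The pileup was 68 and 82 fragments, then 39 and 50, and the local background 11.4 and 10.3, then 9.21 and 11.3. The fold was 5.56 and 7.36, at percentiles 85.7 and 93.4, and then 3.92 and 4.14, at percentiles 75.3 and 80.3. In covered length and in fold the 2 groups did not overlap, and the order was the reverse of that at CAL and AGL79.

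**Figure D3:**
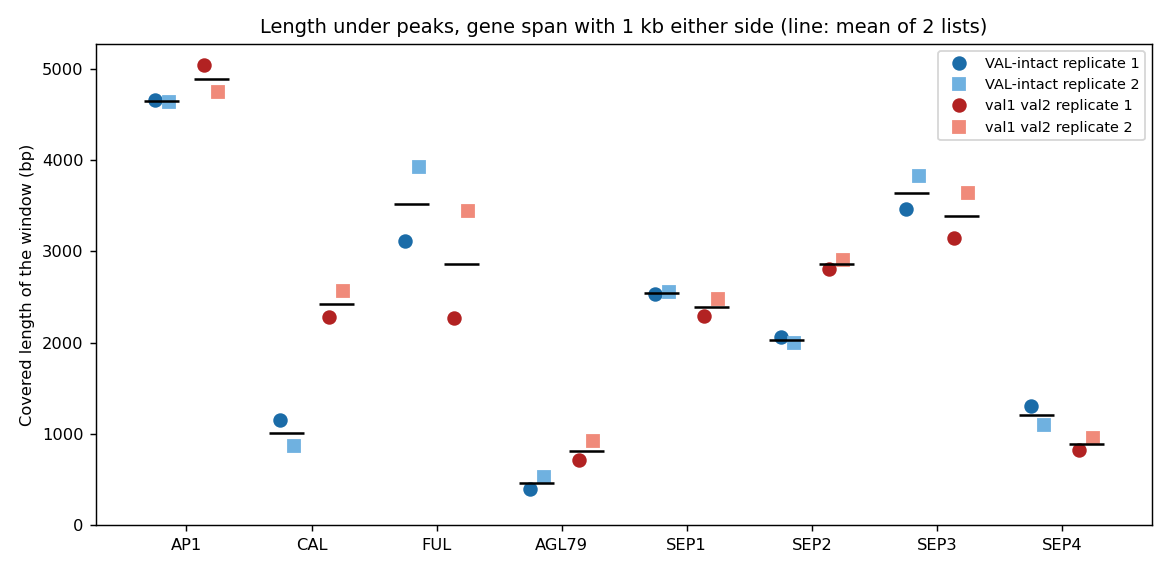
Length of each gene window under peaks in bp, with 1 point for each library and a line at the mean of the 2 libraries of a genotype. CAL, AGL79 and SEP2 lie higher and SEP1 and SEP4 lower in both val1 val2 lists, AP1 is higher by a small step, and FUL and SEP3 overlap.

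Counted over the 8 genes, AP1, CAL, AGL79 and SEP2 were covered more and SEP1 and SEP4 less in both val1 val2 lists than in either VAL-intact list. Of kept genes 36.5% were covered more and 27.9% less by the same rule, so 4 and 2 of 8 members lay near the background. Each of the 6 genes had an exact permutation p of 0.333, the smallest possible. Without VAL-intact replicate 1, or without val1 val2 replicate 2, the count of members covered less was 4. With peaks of a fold of 4 or more, 5 were covered less and 2 more, where 23.1% and 34.6% of kept genes were. The 5 include SEP4, which was mixed in that setting, and the 2 include CAL, which was gained. These counts are thus not over kept genes alone, as the shares are. The summed covered length of the 8 windows was 19.0 ± 0.52 kb in VAL-intact and 20.5 ± 1.6 kb in val1 val2 (SD, n = 2 each), a difference of 7.71%, with overlapping libraries. This difference was 1.74% without val1 val2 replicate 2 and 13.7% without val1 val2 replicate 1, and 0.633% with peaks of a fold of 4 or more. The median ratio of the covered lengths was 0.995 over the members and 1.05 over all kept genes.

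The edges of the strongest peak were also compared. They were measured from the gene end nearer to the summit, a measure chosen after seeing the data. The outer edge lay farther out in both val1 val2 lists at 6 of the 8 genes, AP1, CAL, FUL, AGL79, SEP2 and SEP3, where 31.5% of kept genes met this rule. At FUL this rested on only 2 bp, with the edge at 335 and 336 bp in VAL-intact and at 338 and 492 bp in val1 val2. At SEP1 the edges overlapped, and at SEP4 the outer edge was less far out, which held for 24.7% of kept genes.

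At SEP3 the outer edge was 1414 and 1424 bp past the gene end in VAL-intact and 1556 and 1756 bp in val1 val2. All of these lay beyond the window, so this step does not enter the covered length of SEP3. At SEP2 it was 827 and 812 bp, then 933 and 1055 bp. At CAL it stood at -671 bp, inside the gene, in VAL-intact replicate 1, where the peak nearer to the end was not the strongest, 14 bp outside it in replicate 2, and 300 and 306 bp outside it in val1 val2. At AGL79 it stood at -149 bp, inside the gene, and at 46 bp outside, then 206 and 272 bp outside. Of the 8 genes AP1 had the widest step in its outer edge.

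The inner edge, on the side of the gene body, was withdrawn toward the same end in both val1 val2 lists at AP1, FUL, SEP1, SEP3 and SEP4, 5 of the 8 genes, where 26.3% of kept genes met this rule. At FUL it lay 2512 and 2458 bp into the gene, then 1321 and 2234 bp. At SEP1 it lay 1664 and 1646 bp into the gene, then 1429 and 1507 bp. At CAL and SEP2 the inner edge reached farther in, as in 30.0% of kept genes, and at AGL79 it overlapped. With peaks under 300 bp apart joined, AP1 and SEP3 no longer counted, which left 3 of 8, where 26.0% of kept genes met the rule. The member windows held 10 and 14 peaks in the VAL-intact lists and 15 and 16 in the longer val1 val2 lists. These counts include peaks at places that no VAL-intact peak covered, as at SEP2, and their part in the inner edges was not tested.

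**Figure D4:**
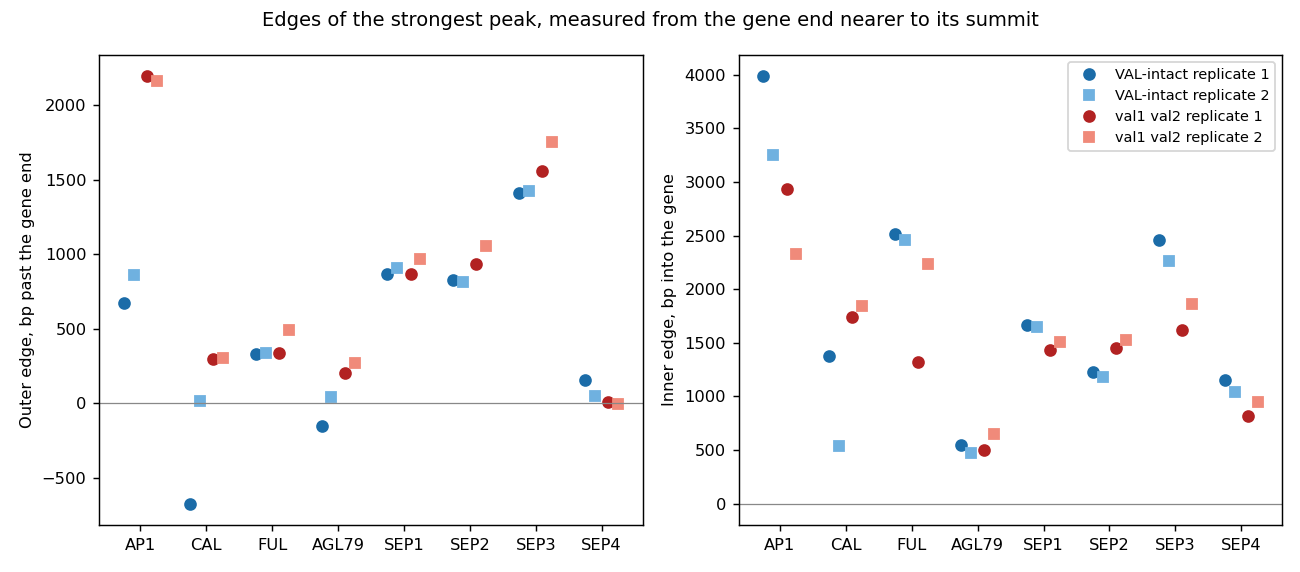
Outer edge (left) and inner edge (right) of the strongest peak of each gene, in bp from the gene end nearer to its summit, with 1 point for each library; values below 0 on the left lie inside the gene. The outer edge of AP1 stands at 2196 and 2163 bp in val1 val2 against 675 and 860 bp in VAL-intact, and most other genes show smaller steps.

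The distance between the mean summits of the genotypes had a median of 84.75 bp over the members and 94.5 bp over all kept genes. Between the replicates it had a median of 54.5 bp (VAL-intact) and 12.5 bp (val1 val2) over the members, and 88 and 89 bp over all kept genes. At AP1, FUL, SEP1 and SEP2 the 4 summits lay within 11, 28, 50 and 33 bp of each other. At SEP3, whose peak was also strong, they spread over 660 bp, with 598 bp between the VAL-intact replicates. At CAL they spread over 968 bp, since the strongest of its short peaks was another one in each VAL-intact list.

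Genes that act with the 8 members were described from 3 lists. Of 20 regulators of flower meristem identity, 14 had any peak, 11 were kept, 3 were mixed and none was lost or gained; 7 were covered more and 2 less in both val1 val2 lists. By the same rule, 32.4% of all genes with any peak were covered more and 25.6% less. The largest differences upward were at AGL24, a MADS-box promoter of flowering, with 1198 ± 82.0 bp and 3438 ± 60.8 bp, and at SVP, a MADS-box repressor of flowering, with 1060.5 ± 7.8 bp and 2473.5 ± 206 bp (SD, n = 2 each). The largest downward were at SOC1, a MADS-box integrator of flowering signals, with 2421.5 ± 354 bp and 1626 ± 21.2 bp, and at BOP2, a co-regulator of organ boundaries, with 2260.5 ± 94.0 bp and 1757 ± 12.7 bp (SD, n = 2 each).

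All 8 floral MADS partners of the SEP proteins were kept as well, with 3 covered less and 1 covered more. SHP2, a gene of carpel and fruit margins, was covered over 2209 and 1907 bp in VAL-intact and 1610 and 1510 bp in val1 val2. Its relative SHP1 was covered over 3376 and 3573 bp, then 3331 and 3050 bp. AGL6, a close relative of the SEP genes, was covered over 915 and 819 bp, then 1570 and 1763 bp, and its window overlaps that of its neighbour SOC1. AGL13, the sister of AGL6, was covered over 557 and 1390 bp, then 1541 and 711 bp, so its groups overlapped.

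Among 20 other MIKC-type MADS genes, 19 had any peak, 14 were kept, 2 were lost, 2 were gained and 1 was mixed. The lost genes were MAF4 and MAF5, relatives of FLC, the gained ones AGL16 and AGL18, which act as repressors of flowering. MAF4 shared its strongest peak with the window of MAF3. That peak was weak, with a fold of 2.23 and 2.47, at percentiles 5.41 and 22.2 of the VAL-intact lists. At MAF5 the fold was 4.54 and 3.62. The gained peaks were short, over 200 and 202 bp at AGL16 and 296 and 460 bp at AGL18. Their fold in the val1 val2 lists was 2.33 and 2.48 at AGL16 and 3.39 and 3.99 at AGL18. In this list 9 genes were covered more and 4 less, and the largest difference downward was at FLC, the repressor of flowering, with -4718 bp between the means. The largest differences upward were at AGL72, a relative of SOC1, with 1267.5 ± 176 bp and 3003 ± 107 bp, and at AGL12, a gene of root development, with 2149.5 ± 2.1 bp and 3346.5 ± 265 bp (SD, n = 2 each). In both val1 val2 lists AGL72 shared its strongest peak with its neighbour AGL71, so that peak cannot be assigned to either gene alone.

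**Figure D5:**
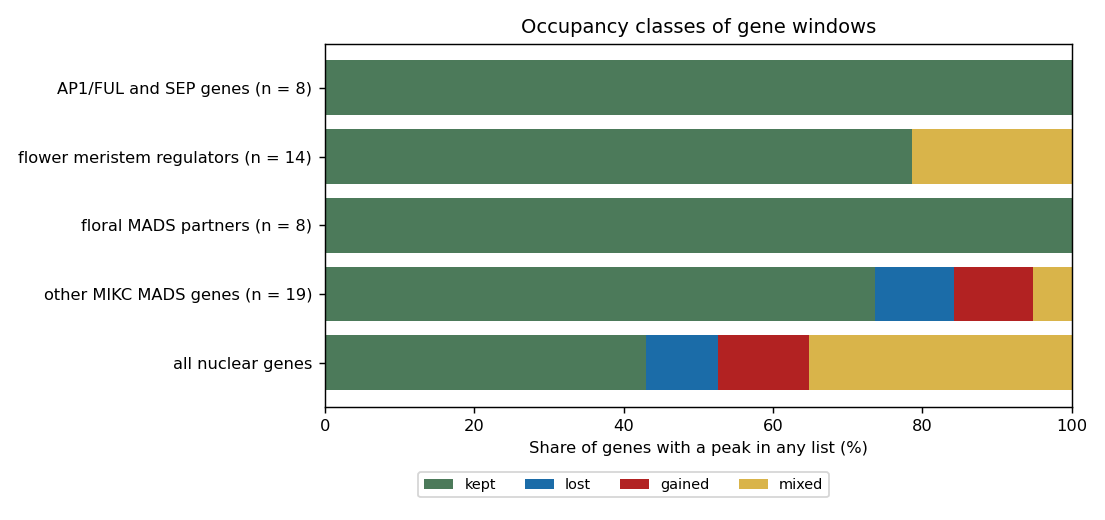
Share of genes in each class, in percent of the genes with any peak, for the 8 members, the 3 lists and all nuclear genes. The members and the floral MADS partners are kept throughout, where 43.0% of all such genes are kept.

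For each member the protein-coding gene of most similar pattern was looked up, more than 10000 bp away or on another chromosome. Other members and genes of the lists were not left out, but none came nearest. Patterns were compared by Euclidean distance over 8 values. These were the percentile of the strongest fold and the covered share of the window in percent in each of the 4 libraries. For SEP1 the nearest gene was IDD5 (AT2G02070), a zinc finger gene, at a distance of 3.51. For AP1 it was MNP (AT3G50870), a GATA factor gene, at 5.28. The nearest genes were AT4G05490 for SEP2 at 5.82, LCR44 for SEP4 at 6.55, AT3G60520 for SEP3 at 6.81, AT2G03290 for FUL at 10.7, AT1G30690 for AGL79 at 11.0 and AT3G60980 for CAL at 12.4. AT3G60980 had percentiles of 63.5 and 57.2 in the VAL-intact lists and 97.0 and 97.1 in the val1 val2 lists, the order seen at CAL.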

How the data were processed

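SWN-GFP chromatin immunoprecipitation was sequenced from 2 VAL-intact and 2 val1 val2 libraries. Bowtie2, SAMtools, Picard and MACS2 and the build TAIR10 were used, per the submitters' processing notes; no source used here gives versions, settings or controls. The 10 columns of the deposited lists, which lack a header, were taken as those of a MACS2 peak table. The deposited pileup is a signal in whole fragments with no visible scaling to depth. The deposited −log10 p and −log10 q are the caller's own, and the deposited fold is the authors' ratio of summit pileup to local background. These scores served to describe and filter peaks. Pileup and fold were also set side by side between lists, without scaling to depth and without a test. The local background was (pileup + 1)/fold − 1. Its lowest value in a list was 7.53 and 8.60 in VAL-intact and 8.79 and 10.1 in val1 val2, and pileups were not adjusted for this.

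Gene spans came from a RefSeq table of assembly TAIR10.1, whose coordinates are not printed; its 37899 nuclear genes were used. Its fit was checked on VAL-intact replicate 1: 69.9% of summits lay in protein-coding spans, and 46.7% and 46.6% after shifts of 1000 bp. A peak counted from 1 bp of overlap. The percentile is the share of peaks in a list with a fold no higher. Each list and member was chosen with earlier results of these data known. Named genes of the lists are those lost or gained and the 2 with the largest differences each way; genes named in the closing section were chosen after their values were seen. Differences per gene were tested by exact permutation. The calls of kept, lost, gained and covered less or more, but not those of edges, were tested on simulated data. There each gene had at most a single peak per list, and planted differences were far larger than the simulated noise. False calls of covered less or more were not counted, so the simulation does not give their rate in these lists. Python 3.11.15, numpy 2.4.6, pandas 2.3.3 and matplotlib 3.10.9 were used. Promoter and protein sequences were not used here.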

Additional observations from a re-analysis of the deposited data

How the results depend on the processing

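The 11 alternatives left all 8 genes kept, with the following exceptions. With a −log10 q of at least 5 the number was 7, where 11.2% of nuclear genes were kept, and AGL79 counted as gained. With a fold of at least 4 or the strongest 2000 peaks it was 5, where 5.14% and 4.59% of nuclear genes were kept. In the last 2 settings CAL counted as gained and AGL79 and SEP4 as mixed. There 5 members were covered less, where 23.1% (fold) and 23.7% (strongest 2000) of kept genes were. Covered more were 2 members, where 34.6% and 33.6% of kept genes were. SEP4, covered less, and CAL, covered more, were not kept there, so these member counts are not over kept genes alone. With the gene span alone 4 were covered less and 3 more, where 25.8% and 30.1% of kept genes were. With 1 library left out, between 2 and 4 members were covered less, and no share over all genes was computed. Joining peaks under 300 bp apart left 3 inner edges withdrawn, where 26.0% of kept genes met this rule. The covered length of AP1 reversed to -252 bp over the gene span, and to -752 bp both with a fold of at least 4 and with the strongest 2000 peaks. These 2 filters dropped the short AP1 peaks, at folds from 2.48 to 3.19. That of SEP3 reversed to 30 bp with a −log10 q of at least 5. This filter dropped the short SEP3 peaks of VAL-intact replicate 2, at a −log10 q of 2.64 and 4.50. The VAL-intact mean went from 3642 to 3362 bp and the val1 val2 mean stayed at 3392 bp. Why the short peaks differed between lists was not tested. The reversals were 4 of the 88 covered-length differences computed under alternatives for single members. The settings with a fold of at least 4 and with the strongest 2000 peaks gave identical values. With the replicate number as a block, the mean difference at CAL was 1418.5 bp by construction and the exact permutation p was 0.5, the smallest possible. Differences between replicates 1 and 2 correlated between genotypes at 0.025 across 5943 kept genes, so the numbers are not taken to pair libraries. Depth and control are unknown, which limits every absent or short peak.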

Other observations

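Further flower regulators and MADS-box genes, named after their values were seen, showed both similar and different coverage. LFY, the direct activator of AP1 in young flowers, was kept, with 3738.5 ± 139 bp and 3642.5 ± 88.4 bp (SD, n = 2 each) in VAL-intact and val1 val2, and its groups overlapped. TFL1, which counteracts LFY and AP1 in the shoot apex, was covered over 1244 and 1639 bp in VAL-intact and 2455 and 2427 bp in val1 val2. UFO, an F-box partner of LFY, had no peak in VAL-intact replicate 1, 244 bp in replicate 2, and 1311 and 1751 bp in val1 val2. AGL15, an embryo MADS-box gene, stood the other way, with 822 and 972 bp in VAL-intact and 344 and 240 bp in val1 val2. TT16, a MADS-box gene of the seed coat, was kept with some of the strongest peaks of the lists, at folds of 20.0 and 19.2 and then 17.2 and 16.8.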
